A study of Mus musculus with 18 samples.

Results

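The genes described here encode the proteins of the mitochondrial ribosome. They were taken as the rows of the UMI table in which a name begins with Mrpl (large subunit) or Mrps (small subunit) followed by a digit. This gave 76 rows of 27297, 47 of the large subunit and 29 of the small subunit. 2 of the rows join a member with a different gene (Mrpl53 with Ccdc142, and Mrps6 with Slc5a3), so their UMIs cannot be given to 1 gene, and 7 others join a member with an older name of the same gene. A UMI (unique molecular identifier) marks 1 captured transcript, so that copies made during amplification are counted once. The study followed microglia, the resident macrophages of the brain, and their yolk sac relatives through mouse development with MARS-seq, in which cells are sorted 1 to a well and the 3′ ends of polyadenylated transcripts are counted.

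All mice were C57BL/6J and carried a green fluorescent protein reporter in Cx3cr1, a chemokine receptor gene of microglia and other myeloid cells, and none was treated. At embryonic day 12.5 (E12.5), CD45+CD11B+CX3CR1-GFP+ cells were sorted from yolk sac (4 libraries, 671 cells kept) and from brain (4 libraries, 718 cells). At E18.5 (6 libraries, 992 cells) and in adult mice (4 libraries, 631 cells) the brain cells were sorted as CD45intCD11BintCX3CR1-GFP+, so the later stages differ from E12.5 in their sort gate as well as in age. The labels give no adult age in days, the deposited table of wells gives 1 subject number for each age, and nothing states that the libraries of a group came from separate animals. The p-values therefore measure the spread between libraries, which may be technical.

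Library totals ranged over 269698 to 309084 UMIs (yolk sac), 228467 to 534219 (E12.5 brain), 143876 to 217647 (E18.5 brain) and 74562 to 99494 (adult brain), and the median cell held 1511, 1725, 983 and 521 UMIs. The E12.5 brain libraries came from 2 plates: replicates 1 and 2 were the deepest in the series (494319 and 534219 UMIs, a sequencing batch of their own), and replicates 3 and 4 held 233389 and 228467 UMIs and shared their batch with yolk sac replicates 1 and 2. All E18.5 and adult libraries and yolk sac replicates 3 and 4 were in 1 further batch. Every pair of libraries used the same 192 cell barcodes by design, and no well name was shared. Of the microglia and macrophage markers, the receptor gene Csf1r had a mean of 3346 CPM (UMIs of a gene per 1000000 UMIs of the library) in yolk sac, 4798 in E12.5 brain, 7967 in E18.5 brain and 11290 in adult brain, and the complement gene C1qa was detected in all 4 groups. Not all of the 14 markers took this course: in adult against E12.5 brain 9 were called higher and 3 lower, and the means of Tyrobp, Aif1 and Ptprc in E12.5, E18.5 and adult brain were 3047, 3324 and 1751 CPM, 1470, 1004 and 1044 CPM, and 187, 209 and 60.6 CPM. Of the other cell types, hemoglobin and other erythroid genes reached 5124 CPM in yolk sac replicate 2 and 3070 CPM in E18.5 replicate 6. The 9 granulocyte and monocyte precursor genes summed to 2548 to 9483 CPM in adult libraries against 82.9 to 166 CPM in E12.5 brain. Prtn3 alone had an adult mean of 2770 CPM, and 5 of the 9 were called higher in adult than in E12.5 brain. S100a8, S100a9, Ccr2 and Plac8 were at 0 UMIs in adult brain, and Plac8 held 14 UMIs at E18.5. The 8 neuron and glia genes summed to means of 18.3, 83.1, 41.3 and 39.5 CPM in yolk sac, E12.5, E18.5 and adult brain, with Gfap and Aqp4 at 0 and the row with Mbp, Tubb3 and Stmn2 at 49, 33 and 25 UMIs in E12.5 brain. The B cell gene Cd79b had means of 151, 106, 230 and 35.2 CPM, and the T cell gene Cd3e was at 0.

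The mitochondrial ribosome translates the few messages of the mitochondrial genome, which encode core subunits of the respiratory chain and of ATP synthase. Its RNAs are made inside the mitochondrion, but every one of its proteins is encoded in the nucleus, made in the cytosol and imported. It descends from a bacterial ribosome: many members still have a bacterial counterpart, and others are found only in mitochondria. Assembly needs the proteins of each subunit together, and loss of single members is known to impair oxidative phosphorylation. The names do not always give the place: the proteins of Mrps18a and Mrps30 sit in the large subunit, and Mrps36 is now known as a subunit of the oxoglutarate dehydrogenase complex. The 1 row for a mitochondrially encoded gene held 0 UMIs, so the products of this ribosome were not measured here.

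The members together held 23891 UMIs in the cells kept, 15930 of the large and 7961 of the small subunit. 58 members had at least 100 UMIs and 10 had fewer than 30. The highest count of a member in any well was 7. The 36 wells left empty held 1008 UMIs in all, of which 1 was a member's. 51 members (33 large, 18 small) passed the filter on low counts and were tested. The filter works on the counts of each library, so that 25 members were not tested, 2 of them with 145 and 154 UMIs in all (Mrpl39 and the row with Mrps6), while Mrpl22 was tested with 136.

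The summed levels of both subunits were highest at E12.5, in yolk sac and brain alike, lower at E18.5 and lowest in adult brain. The summed level of the large subunit was 4862, 4536, 4122 and 4820 CPM in yolk sac and 4311, 4558, 5154 and 5270 CPM in E12.5 brain. In E18.5 brain it ran from 2665 to 2998 CPM with a median of 2779 CPM, and in adult brain it was 2171, 2736, 2224 and 2387 CPM. All 8 E12.5 libraries were above all 10 later ones. Adult replicate 2 lay within the range of E18.5. The mean was 4585 ± 341 CPM (SD, n = 4) in yolk sac, 4823 ± 463 (SD, n = 4) in E12.5 brain, 2788 ± 122 (SD, n = 6) in E18.5 brain and 2380 ± 255 (SD, n = 4) in adult brain, so that the E12.5 brain mean was 1.73-fold the E18.5 mean and 2.03-fold the adult mean.

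The small subunit took the same order. Its summed level was 2457, 2464, 2220 and 2310 CPM in yolk sac and 2183, 2143, 2464 and 2530 CPM in E12.5 brain. It ran from 1365 to 1522 CPM with a median of 1411 CPM in E18.5 brain and was 1136, 1143, 1153 and 1288 CPM in adult brain. Here no library of a later stage overlapped an earlier one among the brain groups, while yolk sac and E12.5 brain overlapped. The adult sums rested on 96 to 113 UMIs per library. Counting error alone gives such sums a coefficient of variation of 9.41 to 10.2%, against 6.11% observed. The gap between adult and E18.5 brain, from 1288 to 1365 CPM, is smaller than that error. The means were 2363 ± 119 (SD, n = 4), 2330 ± 195 (SD, n = 4), 1421 ± 53.9 (SD, n = 6) and 1180 ± 72.1 (SD, n = 4), and the E12.5 brain mean was 1.64-fold the E18.5 mean and 1.97-fold the adult mean. The ratio of the large to the small sum within a library averaged 1.94, 2.07, 1.96 and 2.02 in the 4 groups in that order, with SDs of 0.115, 0.0656, 0.132 and 0.25, and the ranges of all 4 groups overlapped. Sums over members that were chosen as a list were given no test.

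**Figure D1:**
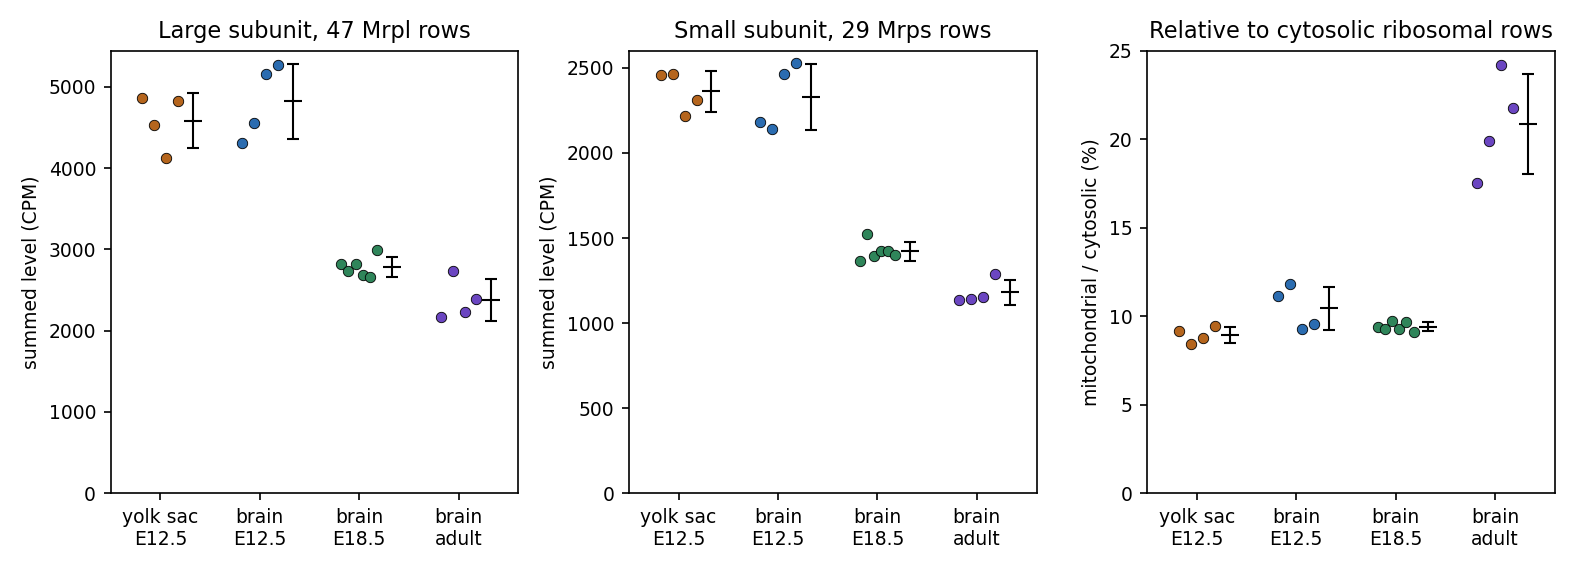
Summed level of the large subunit members (left) and small subunit members (middle) in CPM, and their sum as a percentage of the summed cytosolic ribosomal protein rows (right), 1 point per library, with the mean and SD of each group as a bar. All 8 E12.5 libraries lie above all 10 later ones in the left and middle panels, while in the right panel the 4 adult libraries (17.5 to 24.2%) lie above all others (8.42 to 11.8%).

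The 2 plates of E12.5 brain differed. Both subunits together summed to 6494 and 6701 CPM in replicates 1 and 2 and to 7618 and 7800 CPM in replicates 3 and 4. The lower pair was still above the highest E18.5 library, at 4398 CPM. In the 1 sequencing batch that yolk sac shares with E18.5 and adult brain, yolk sac replicates 3 and 4 summed to 6341 and 7130 CPM, E18.5 libraries to 4089 to 4398 CPM and adult libraries to 3307 to 3879 CPM. No E12.5 brain library was in that batch, so E12.5 brain could not be set against the later stages within a batch.

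The mean shares of cells with a UMI showed the same order. When each cell was thinned to 300 UMIs, so that depth was equal, a large subunit UMI was found in 74.0 ± 2.25% of yolk sac cells (SD, n = 4 libraries), 72.9 ± 5.79% of E12.5 brain cells (n = 4), 54.9 ± 2.18% of E18.5 cells (n = 6) and 48.8 ± 4.54% of adult cells (n = 4). For the small subunit these shares were 49.6 ± 3.50%, 46.6 ± 1.41%, 31.9 ± 3.06% and 27.4 ± 4.32%. Without thinning they were 98.1, 98.4, 88.5 and 70.5% for the large and 91.8, 92.8, 69.0 and 43.6% for the small subunit. After thinning, E18.5 and adult libraries overlapped, at 52.7 to 58.1% and 42.9 to 53.8% for the large subunit. For the small subunit they were at 26.1 to 34.8% and 22.7 to 32.7%. Cells with several UMIs were fewer at both later stages than at E12.5. In thinned cells, 3 or more large subunit UMIs were drawn in 129 of 671 yolk sac cells (19.2%) and 114 of 718 E12.5 brain cells (15.9%). The shares were nearly equal at E18.5 (51 of 992 cells, 5.14%) and in adult brain (32 of 631 cells, 5.07%).

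**Figure D2:**
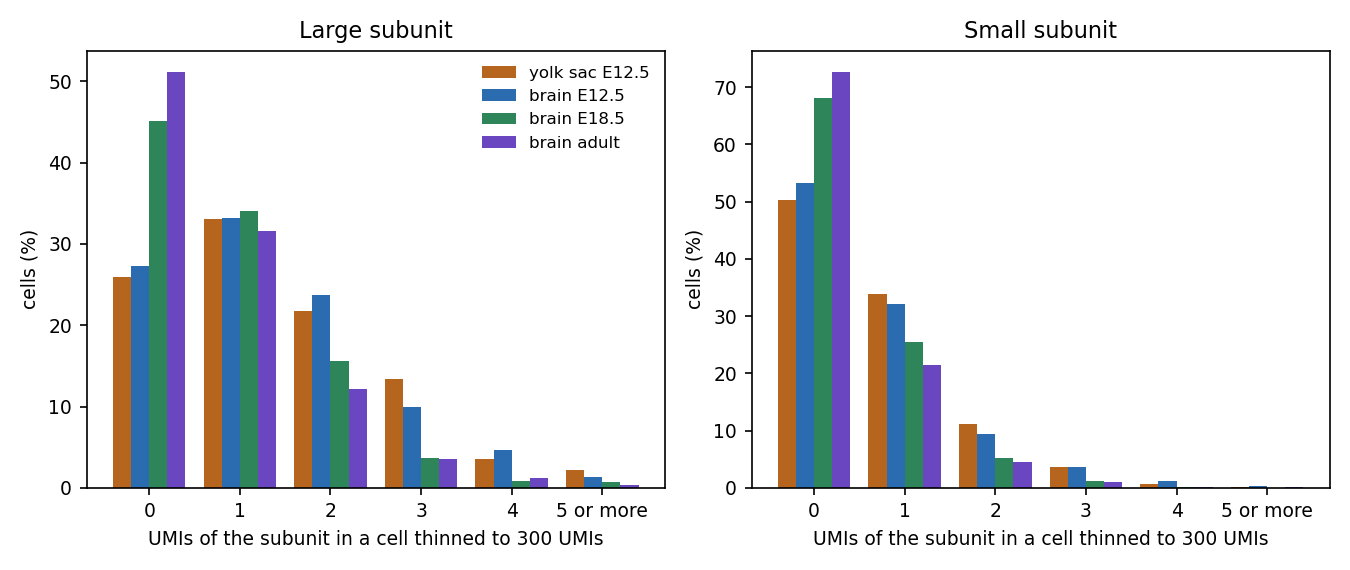
Share of cells (%) by the number of large subunit (left) and small subunit (right) UMIs in a cell thinned to 300 UMIs, with bars for the 4 groups, all libraries of a group pooled. Cells with 0 large subunit UMIs made up 25.9% in yolk sac, 27.3% in E12.5 brain, 45.2% in E18.5 brain and 51.2% in adult brain.

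Dividing cells are more frequent before birth, so cells with at least 2 UMIs of 38 S and G2/M phase genes were set apart after thinning. Their share of a library ran from 11.3 to 19.8% (yolk sac), 14.5 to 32.8% (E12.5 brain), 9.55 to 21.3% (E18.5 brain) and 0.680 to 8.59% (adult brain). Within libraries, the members' summed level was higher in these cells than in the others in 4 of 4 yolk sac, 4 of 4 E12.5 brain, 5 of 6 E18.5 and 2 of 4 adult libraries. Pooled, it was 8236 against 6628 CPM in yolk sac, 7546 against 6742 CPM in E12.5 brain, 4507 against 4144 CPM in E18.5 brain and 3356 against 3554 CPM in adult brain, the adult value in dividing cells resting on 50 UMIs. In the remaining cells the E12.5 brain mean was 1.69-fold the E18.5 mean for the large subunit and 1.65-fold for the small subunit, close to the values with all cells. In the remaining cells the E12.5 brain mean was 1.93-fold and 1.97-fold the adult mean. The small subunit sums of E18.5 (1287 to 1486 CPM) and adult brain (1112 to 1295 CPM) overlapped in these cells. Between E12.5 and E18.5 brain, 18 of 45 tested members were then called lower by the edgeR test given below, as were 470 of 4057 genes. Of the 26 members called lower with all cells, 17 kept the call. The part of dividing cells in the members' levels was not tested.

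Between yolk sac and brain at E12.5, where age and gate were the same, few single members differed. In the edgeR quasi-likelihood test over 4883 genes with Benjamini-Hochberg adjustment, 2 members were higher in yolk sac and 1 was lower, out of 51 tested. Libraries of 1 plate were more alike than libraries of different plates in these groups (chi-square per degree of freedom 1.495 to 2.11 against 4.07 to 5.54), and with counts summed per plate 0 of the 3 were called (adjusted p = 0.0688 for Mrps24, 0.161 for Mrpl30 and 0.257 for Mrpl52, edgeR). Of all genes tested, 7.04% were called higher and 8.81% lower, against 3.92 and 1.96% of tested members. In 1 member the yolk sac libraries all lay above those of E12.5 brain (8.36% of all genes) and in 4 all below (11.6%). The median log2 fold change of tested members was -0.08, against -0.05 over all genes, with 29 fitted values below 0 and 22 above.

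Mrps24 encodes the counterpart of a bacterial small subunit protein near the mRNA entry. Its level was 359, 396, 307 and 226 CPM in yolk sac and 164, 191, 163 and 245 CPM in E12.5 brain. Yolk sac replicate 4 lay below brain replicate 4, and all other yolk sac libraries were above every brain library. The log2 fold change was 0.80 ± 0.22 (SE), with an edgeR adjusted p of 0.00696. Mrpl30, a large subunit protein with a bacterial counterpart, was 307, 359, 398 and 412 CPM in yolk sac and 210, 251, 270 and 188 CPM in E12.5 brain, and the libraries did not overlap. Its log2 fold change was 0.72 (SE 0.22; adjusted p = 0.0188 by edgeR). The call for Mrpl30 was lost without yolk sac replicate 4, E12.5 brain replicate 1 or E12.5 brain replicate 4 (edgeR adjusted p = 0.068, 0.0673 and 0.0579), and both calls were lost without the plate of E12.5 brain replicates 1 and 2 (adjusted p = 0.0995 for Mrps24 and 0.0929 for Mrpl30).

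Mrpl52, a large subunit protein found only in mitochondria, passed in the other direction. It was 222, 189, 188 and 237 CPM in yolk sac and 221, 260, 424 and 451 CPM in E12.5 brain. Brain replicates 3 and 4 stood apart, while replicate 1 lay within the yolk sac range and replicate 2 just above it. The log2 fold change of -0.65 (SE 0.23; adjusted p = 0.0476 by edgeR) became -0.08 without replicates 3 and 4 (adjusted p = 0.888), and the call was also lost when any 1 yolk sac library or either of those brain libraries was left out. Mrpl54, another large subunit protein without a bacterial counterpart, was the member with the most UMIs that did not pass. Its levels were 322, 366, 272 and 352 CPM in yolk sac and 198, 288, 283 and 306 CPM in E12.5 brain, with a log2 fold change of 0.33 (SE 0.22; adjusted p = 0.376 by edgeR).

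Between E12.5 and E18.5 in the brain, 26 of 51 tested members were lower at E18.5 and 0 were higher by edgeR. 20 of these were among the 33 tested large subunit members and 6 among the 18 of the small subunit. Of all 4883 genes tested, 13.4% were called lower and 11.1% higher. The median log2 fold change of tested members was -0.70, against -0.03 over all genes, and 50 of 51 fitted values were below 0. In 24 members the 4 E12.5 libraries all lay above the 6 E18.5 libraries, which 10.6% of all genes did. Among all 58 members with at least 100 UMIs, tested or not, the pooled level was lower at E18.5 in 55, or 94.8%, against 53.4% of all genes with as many UMIs. The filter can keep a member through the libraries of 1 group. Over all 76 members, with no minimum count, the pooled level was lower at E18.5 in 65, higher in 9 and equal in 2. Of all 27297 rows it was lower in 6799, higher in 6546 and equal in 13952. Mrps2, which was not tested, was mostly higher at E18.5, at 31.6 to 55.6 CPM against 16.2 to 34.3 CPM in E12.5 brain. At an unadjusted p under 0.05, 33 members were lower and 0 higher, against 944 lower and 814 higher of all 4883 genes. DESeq2 called 19 of 67 members lower and 0 higher, against 535 lower and 560 higher of 8609 genes.

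Members were also counted by origin, with no test of the difference between the classes. In the large subunit, 14 of 23 tested members with a counterpart and 6 of 10 without one were called lower, with median log2 fold changes of -0.70 and -0.80. In the small subunit the counts were 5 of 12 and 1 of 4, with medians of -0.71 and -0.61. Neither Mrps18a nor Mrps30, which are placed in the large subunit, passed.

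Mrps21, a small subunit member with a bacterial counterpart, had the smallest adjusted p of the members here. It was 275, 238, 351 and 263 CPM in E12.5 brain and 88.3 to 143 CPM in E18.5 brain, with a median of 107 CPM. The lowest E12.5 library stood well above the highest E18.5 library, and the log2 fold change was -1.38 (SE 0.20; adjusted p = 1.6e-06 by edgeR). Mrps12, which encodes the counterpart of the bacterial protein S12 of the decoding center, was 121, 122, 141 and 188 CPM at E12.5 and 34.4 to 68.9 CPM at E18.5, with a median of 51.5 CPM. Its log2 fold change was -1.43 (SE 0.28; adjusted p = 1.5e-04 by edgeR), and its libraries did not overlap either.

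4 large subunit members completed the 6 with the smallest adjusted p. Mrpl36, the counterpart of the smallest bacterial large subunit protein, was 174, 157, 244 and 284 CPM at E12.5 and 53.1 to 129 CPM (median 87.4) at E18.5, a log2 fold change of -1.21 (SE 0.24; adjusted p = 1.8e-04 by edgeR). Mrpl4, whose bacterial counterpart lines the peptide exit tunnel, was 140, 165, 210 and 228 CPM at E12.5 and 26.6 to 116 CPM (median 79.2) at E18.5, a log2 fold change of -1.22 (SE 0.26; adjusted p = 5.3e-04 by edgeR). In both, replicates 3 and 4 were the 2 highest E12.5 libraries. Mrpl20, whose bacterial counterpart is needed early in large subunit assembly, was even across E12.5 brain at 212, 202, 214 and 223 CPM and ran from 51.6 to 139 CPM (median 108) at E18.5, a log2 fold change of -1.12 (SE 0.25; adjusted p = 9.0e-04 by edgeR). Mrpl34 was 196, 198, 304 and 245 CPM at E12.5 and 56.8 to 149 CPM (median 109) at E18.5, a log2 fold change of -1.09 (SE 0.26; adjusted p = 0.0015 by edgeR). None of these 4 overlapped between the stages.

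The other members with the most UMIs divided. Mrpl28, a large subunit member with a bacterial counterpart, was 214, 195, 201 and 267 CPM at E12.5 and 74.4 to 149 CPM (median 114) at E18.5, with a log2 fold change of -0.95 (SE 0.24; adjusted p = 0.0026 by edgeR). Mrpl54 ran from 96.5 to 195 CPM (median 138) at E18.5, below all E12.5 brain libraries, with a log2 fold change of -0.90 (SE 0.21; adjusted p = 0.00165 by edgeR). Mrpl52 ran from 139 to 221 CPM (median 197) at E18.5, reaching the lowest E12.5 brain library, with a log2 fold change of -0.87 (SE 0.21; adjusted p = 0.00225 by edgeR). Without E12.5 brain replicates 3 and 4 that value was -0.30 (adjusted p = 0.464). Mrpl30 ran from 107 to 215 CPM (median 148), with a log2 fold change of -0.62 (SE 0.22; adjusted p = 0.033 by edgeR). Its call was lost without E12.5 brain replicate 2 or 3 or E18.5 replicate 1, 3, 4 or 5, at adjusted p from 0.0688 to 0.149.

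Mrps24, Mrps15 and Mrps18a did not pass. Mrps24 ran from 90.3 to 156 CPM (median 126) at E18.5, below every E12.5 brain library, and its log2 fold change of -0.56 ± 0.22 (SE) had an edgeR adjusted p of 0.0537. Mrps15, a small subunit member with a bacterial counterpart, was 164, 150, 124 and 136 CPM at E12.5 and 66.4 to 183 CPM (median 95.7) at E18.5 (log2 fold change -0.42, SE 0.25; adjusted p = 0.231 by edgeR). Mrps18a was 107, 131, 137 and 123 CPM at E12.5 and 63.1 to 149 CPM (median 129) at E18.5 (log2 fold change -0.05, SE 0.24; adjusted p = 0.982 by edgeR). For the last 2 the stages overlapped.

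**Figure D3:**
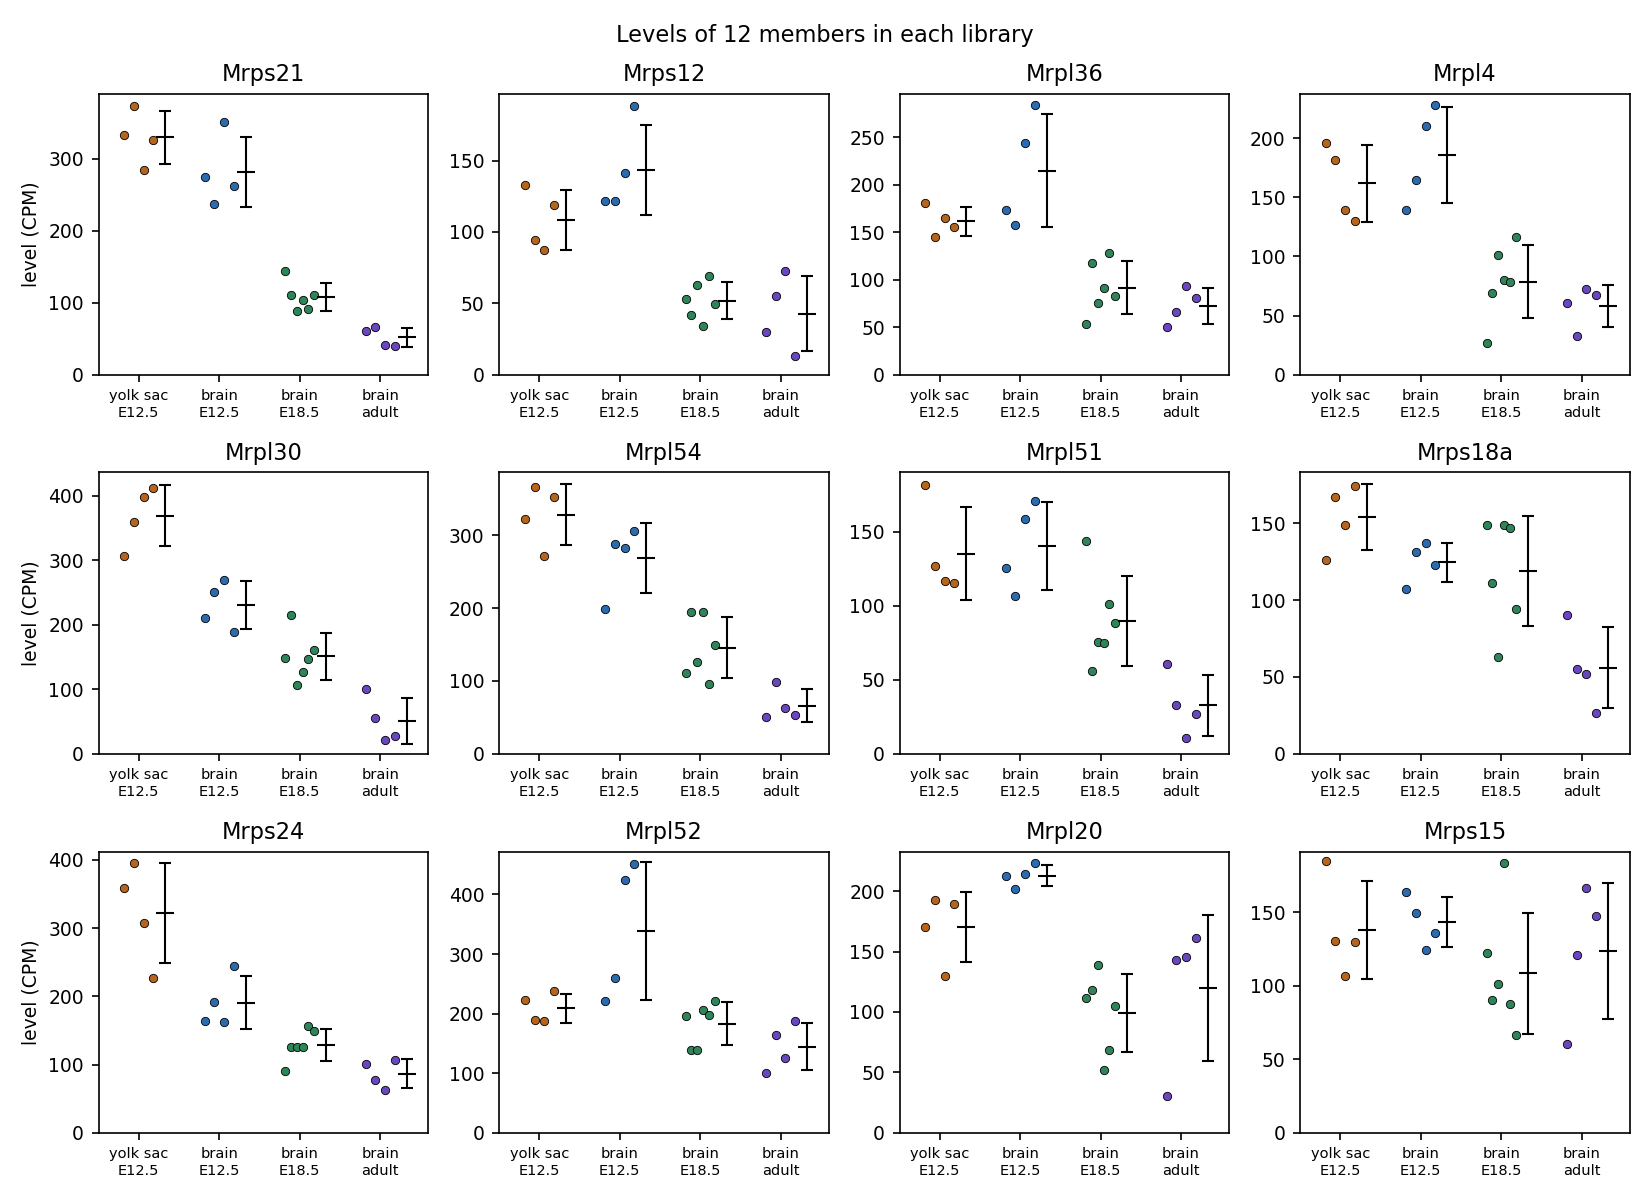
Level in CPM of 12 members in each library by group, with the mean and SD as a bar and a separate scale for each member. Mrps21 fell at both steps in the brain, Mrpl52 was raised in 2 of the 4 E12.5 brain libraries, and Mrps15 overlapped across all groups.

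How many single members passed depended on which libraries stood for E12.5 brain. Without replicates 3 and 4, 5 of 53 tested members were called lower, as were 282 of 5427 genes. The members' median log2 fold change was -0.51, and all 26 of the original calls were still below 0. Of the members described above, Mrps21, Mrps12 and Mrpl20 still passed. Without replicates 1 and 2 the count was 24 of 54 members, at a median of -0.82, and 643 of 5431 genes. With the sequencing batch as a covariate 5 of 51 members and 184 of 4883 genes were called lower. The members' median was then -0.72, and 25 of the 26 were below 0. Of the members described above, Mrps21, Mrps12, Mrpl36 and Mrpl52 still passed. Replicates 1 and 2 were alone in their batch and added nothing to this contrast. It set replicates 3 and 4 against E18.5 only by way of the yolk sac libraries, taking batch effects as equal in all groups. Leaving out E12.5 brain replicate 3 gave 17 of 52 members and 450 of 4967 genes. Leaving out E18.5 replicate 4 gave 17 of 54 members and 493 of 4984 genes. Thinning every library to 74562 UMIs left 27 members to test, at a median of -0.85. Of these 9 were called lower, as were 307 of 2335 genes. Genes of the immediate early response such as Fos and Egr1, which tissue dissociation can induce, summed to 247 to 291 CPM in E12.5 brain and 3580 to 4535 CPM at E18.5, and their part in the members' levels was not tested. In E18.5 replicate 6, the library with many erythroid UMIs, the members' sum was 4398 CPM, the highest of the 6.

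The RefSeq promoters of the members, from 250 bases before to 50 after the start, were searched on both strands for short core motifs. 67 of 76 member symbols had 1 or more promoters in the table (build GRCm38.p6), 73 promoters in all. The core bound by ETS factors, CCGGAAG, was present in 24 of 73 member promoters (32.9%) and in 8.86% of all 32851 promoters. The YY1 core ATGGCGG was present in 17.8% against 4.06%, the NRF1 core GCATGCG in 11.0% against 3.58%, the GC box GGGCGG in 52.1% against 35.7%, the CCAAT box in 41.1% against 37.4%, the E-box CACGTG in 9.59% against 7.15% and the TATA box TATAAA in 6.85% against 13.6%. A match is a description of the letters and not of binding. Among the members matched, the ETS core was found in 9 of 23 that were called lower at E18.5 and in 9 of 22 that were tested and did not pass. In the same order, the YY1 core was found in 2 and 7, the NRF1 core in 1 and 5, and the TATA box in 1 and 3. The CCAAT box was found in 9 and 11, the GC box in 10 and 10, and the E-box in 3 and 1. These differences were not tested. The stretches below are the 150 bases before the start of 5 members whose levels are described here, with the ETS core or its reverse complement in capitals. They are shown because members with and without that core changed between the same groups, and all are on the plus strand of GRCm38.p6. The 5 were picked for display and most hold the core, whereas 24 of the 67 member genes with a promoter do.
Mrpl34, chr8:71464776-71464925, lower at E18.5: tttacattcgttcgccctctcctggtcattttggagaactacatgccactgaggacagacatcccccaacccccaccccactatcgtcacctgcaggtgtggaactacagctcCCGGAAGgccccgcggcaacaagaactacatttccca
Mrpl51, chr6:125192050-125192199, lower in adult brain: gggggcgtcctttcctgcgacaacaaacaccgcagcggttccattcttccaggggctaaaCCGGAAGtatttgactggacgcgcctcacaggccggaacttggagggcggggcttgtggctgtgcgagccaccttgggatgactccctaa
Mrpl52, chr14:54426759-54426908, lower at E18.5: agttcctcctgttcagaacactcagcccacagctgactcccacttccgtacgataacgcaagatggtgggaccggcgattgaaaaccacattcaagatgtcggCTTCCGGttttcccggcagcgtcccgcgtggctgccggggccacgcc
Mrpl22, chr11:58171514-58171663, lower in adult brain: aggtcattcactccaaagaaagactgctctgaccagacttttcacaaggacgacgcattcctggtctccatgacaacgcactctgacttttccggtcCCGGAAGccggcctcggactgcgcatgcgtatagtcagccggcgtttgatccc
Mrpl30, chr1:37890327-37890476, lower at both steps, no ETS core in this stretch: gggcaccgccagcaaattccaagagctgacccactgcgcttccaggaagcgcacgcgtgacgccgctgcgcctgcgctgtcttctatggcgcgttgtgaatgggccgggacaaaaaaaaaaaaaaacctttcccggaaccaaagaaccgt
The core began 37 bases before the start in Mrpl34, 90 in Mrpl51, 47 in Mrpl52 and 53 in Mrpl22.

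Between E18.5 and adult brain, sorted through 1 gate and sequenced in 1 batch, the change was smaller. 6 of 51 tested members were lower in adult brain by edgeR and 0 were higher. This was 11.8% of those tested, and 11.2% of all genes were called lower (10.3% higher), so the share was near the background. In 2 members, Mrpl30 and Mrps21, all adult libraries lay below all E18.5 libraries, which 9.13% of genes did. The median log2 fold change was -0.16 for members and -0.03 for all genes, and 20 fitted values were above 0. At an unadjusted p under 0.05, 7 members were lower and 2 higher, against 852 lower and 771 higher of all 4883 genes. DESeq2 called 3 of 63 members lower and 0 higher, against 513 lower and 476 higher of 7792 genes. Adult libraries were shallow, with 274 to 353 member UMIs each, and counting error alone gives a coefficient of variation of 5.32 to 6.04% for the sum of a library.

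4 of the 6 were large subunit members by name. Mrpl30 was 101, 54.9, 20.8 and 26.8 CPM in adult brain, all below the E18.5 range of 107 to 215 CPM, with a log2 fold change of -1.48 (SE 0.33; adjusted p = 9.4e-04 by edgeR). Mrpl54 was 50.3, 98.9, 62.3 and 53.6 CPM, and only adult replicate 2 reached into the E18.5 range of 96.5 to 195 CPM. Its log2 fold change was -1.08 (SE 0.31, adjusted p = 0.00976 by edgeR), and the call was lost with libraries thinned to 1 total (adjusted p = 0.183). Mrpl51, a large subunit protein found only in mitochondria, was 125, 107, 159 and 171 CPM in E12.5 brain, 55.6 to 143 CPM (median 82.1) at E18.5 and 60.3, 33, 10.4 and 26.8 CPM in adult brain. Its log2 fold change from E18.5 was -1.41 (SE 0.43; adjusted p = 0.0142 by edgeR), and the call was lost without adult replicate 3 (adjusted p = 0.0797). Mrpl22, the counterpart of a bacterial protein of the exit tunnel, rested on 3 UMIs in all adult libraries, with 0 in replicates 1 and 4, against 39 UMIs at E18.5. Its adjusted p of 0.0493 (edgeR, log2 fold change -2.05 ± 0.76 SE) rose above 0.05 when any of adult replicates 1, 2 and 4 or E18.5 replicate 4 was left out (0.0605 to 0.159). With 1 library left out the log2 fold change ran from -1.64 (without adult replicate 1) to -3.09 (without adult replicate 3), and the call was also lost with DESeq2 (adjusted p = 0.115), plate sums (0.0841), a minimum of 500 UMIs per cell (0.0743) and no filter (0.0537).

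The other members called were named for the small subunit. Mrps21 was 60.3, 65.9, 41.6 and 40.2 CPM in adult brain, below all E18.5 libraries, with a log2 fold change of -1.003 (SE 0.31; adjusted p = 0.0166 by edgeR). Without adult replicate 3 the edgeR adjusted p was 0.064. The call was also lost with DESeq2 (adjusted p = 0.0591), plate sums (0.0555 by edgeR) and a minimum of 500 UMIs per cell (0.0596 by edgeR). Mrps18a, which did not pass between E12.5 and E18.5, was 90.5, 54.9, 52.0 and 26.8 CPM in adult brain, with a log2 fold change of -1.02 (SE 0.34; adjusted p = 0.0281 by edgeR). Adult replicate 1 lay within the E18.5 range, and the call was lost without adult replicate 2, 3 or 4 or E18.5 replicate 4 or 5 (adjusted p = 0.0546 to 0.0999). The Mrps18a call was also lost with DESeq2 (adjusted p = 0.0544), plate sums (0.0554 by edgeR) and libraries thinned to 1 total (0.0539 by edgeR). Mrpl52, the member with the most UMIs that did not pass, was 101, 165, 125 and 188 CPM in adult brain and overlapped E18.5 (log2 fold change -0.34, SE 0.27; adjusted p = 0.412 by edgeR).

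**Figure D4:**
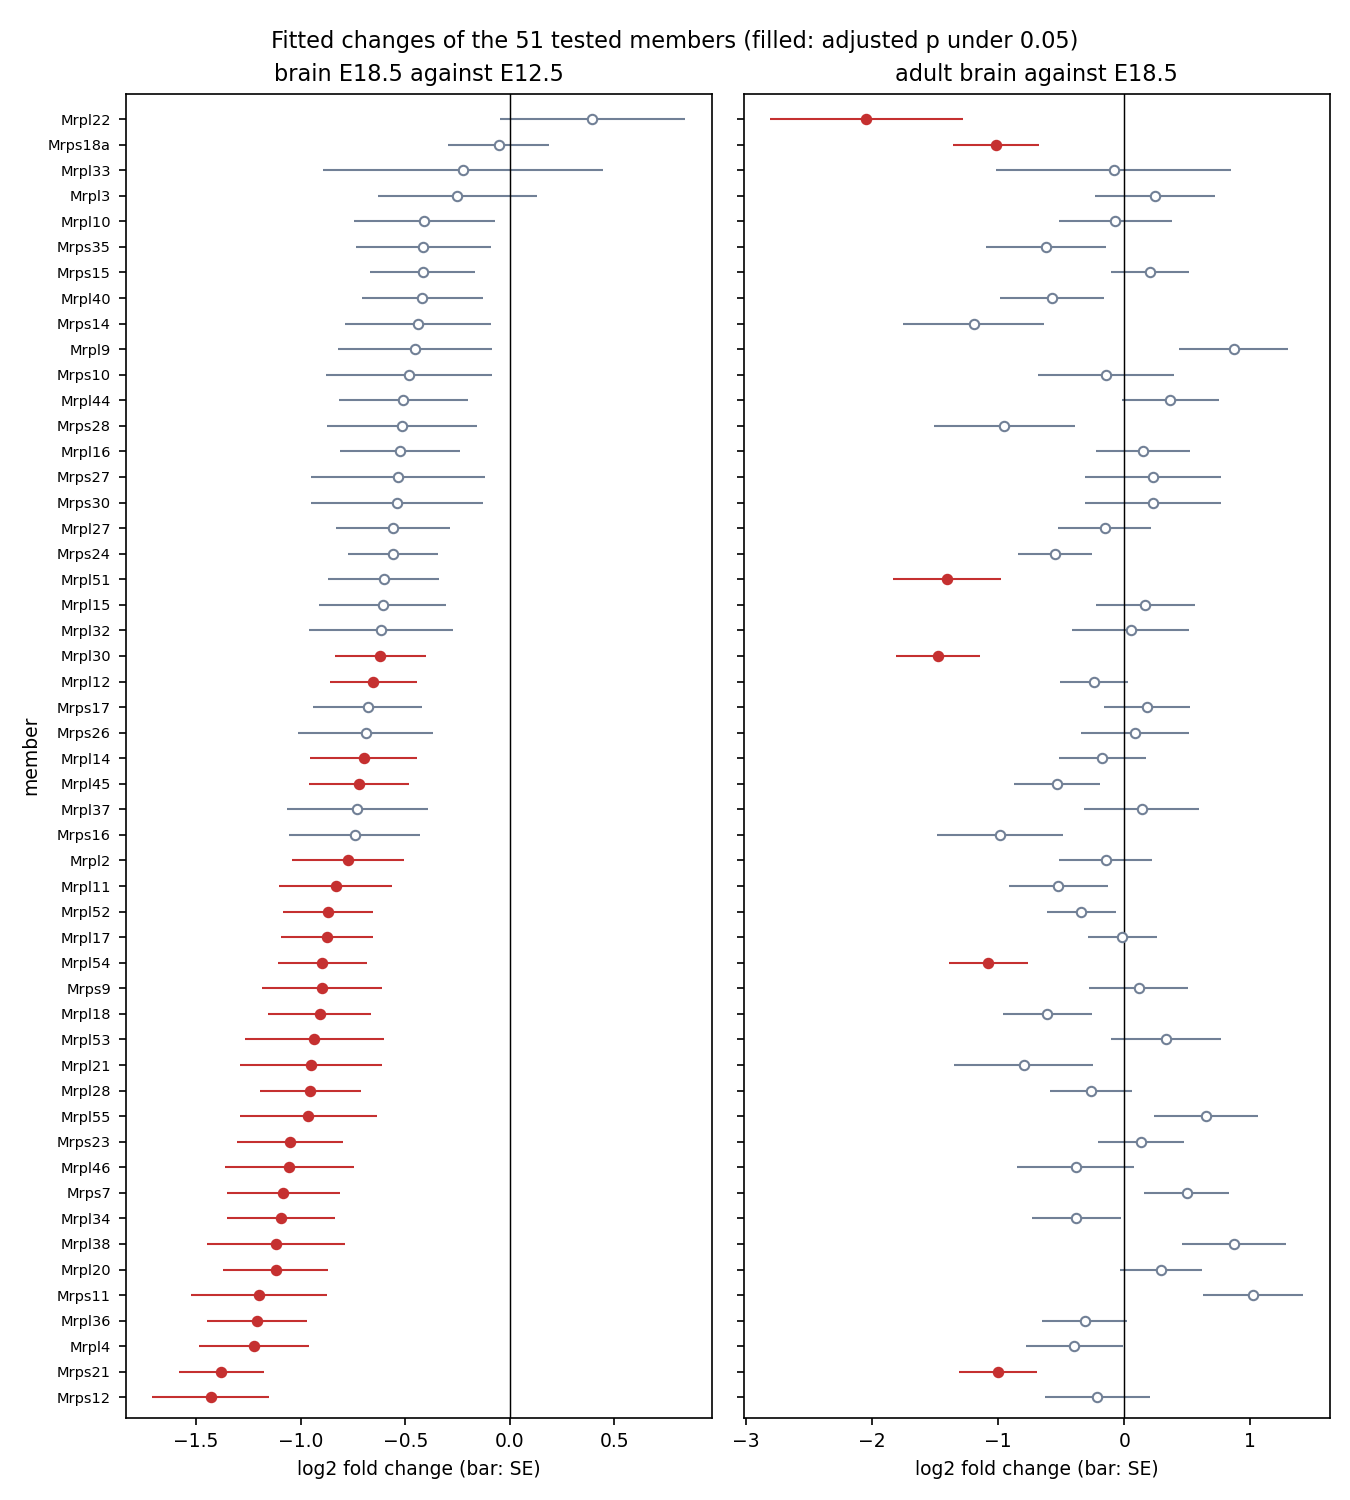
Fitted log2 fold change of each of the 51 tested members with its SE, ordered by the change from E12.5 to E18.5 in the brain (left), with the change from E18.5 to adult brain in the same order (right); filled points had an edgeR adjusted p under 0.05. On the left 50 of 51 values are below 0 and 26 are filled; on the right 31 are below 0, 20 above, and 6 are filled.

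Set directly against E12.5 brain, adult brain had 27 of 51 tested members lower and 0 higher by edgeR, 19 of the large and 8 of the small subunit. At an unadjusted p under 0.05, 30 members were lower and 0 higher, against 1215 lower and 1057 higher of all 4883 genes. DESeq2 called 24 of 69 members lower and 0 higher, against 943 lower and 1054 higher of 9154 genes. Of all genes tested, 20.7% were called lower and 17.8% higher. In 27 members no adult library reached the level of an E12.5 brain library, which held for 19% of genes. The median log2 fold change was -0.89 for members and -0.07 for all genes. This comparison and that of E18.5 share the 4 E12.5 brain libraries. The 6 members with the smallest adjusted p were Mrps21 (log2 fold change -2.38), Mrpl54 (-1.98), Mrpl30 (-2.10), Mrpl51 (-2.01), Mrpl36 (-1.52) and Mrpl4 (-1.62), with SEs from 0.29 to 0.42, and in each of them no adult library overlapped an E12.5 brain library. Mrpl36 and Mrpl4 were lower by E18.5, and their adult levels of 50.3 to 93.5 and 33 to 72.7 CPM overlapped those of E18.5. Without E12.5 brain replicates 3 and 4, 18 of 53 members and 898 of 5427 genes were called lower. With the sequencing batch as a covariate these were 11 of 51 members and 554 of 4883 genes. The batch fit again set replicates 3 and 4 against adult brain only by way of the yolk sac libraries.

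Mrps15 was the member with the most UMIs that did not pass. It was 60.3, 121, 166 and 148 CPM in adult brain against 124 to 164 CPM in E12.5 brain, with a log2 fold change of -0.21 (SE 0.31; adjusted p = 0.622 by edgeR). Of the members too low to test, the row that joins Mrps6 with Slc5a3 held 87 UMIs in E12.5 brain, at 60.7, 31.8, 81.4 and 91.9 CPM, and 3 UMIs in adult brain. Slc5a3 is an inositol transporter gene, and the row cannot tell the genes apart. Mrpl39, a large subunit member found only in mitochondria, was 46.5, 39.3, 47.1 and 43.8 CPM in E12.5 brain, 20.9 to 37.2 CPM at E18.5 and 40.2, 33, 83.1 and 53.6 CPM in adult brain, so its adult libraries were not below those of E12.5. The granulocyte and monocyte precursor sum was high in adult libraries, and the part of these genes in the members' adult levels was not tested.

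The cytosolic ribosome gives a scale for these values, since its proteins are also made in large amounts before birth. Its 73 rows summed to 77726 ± 4639 CPM in yolk sac (SD, n = 4), 69728 ± 14108 in E12.5 brain (n = 4), 44770 ± 2166 in E18.5 brain (n = 6) and 17297 ± 2492 in adult brain (n = 4). Relative to that sum, the mitochondrial members were at 8.95 ± 0.448% in yolk sac, 10.4 ± 1.23% in E12.5 brain, 9.41 ± 0.253% in E18.5 brain and 20.9 ± 2.84% in adult brain. The first 3 groups lay between 8.42 and 11.8% in every library and the adult libraries between 17.5 and 24.2%. The libraries of E12.5 brain (9.28 to 11.8%, median 10.3%) and E18.5 brain (9.10 to 9.75%) overlapped only in part in this percentage. The cytosolic sum itself ran from 56642 to 82103 CPM over the E12.5 brain libraries. From E18.5 to adult brain the mean cytosolic sum was lower by far more than the mean mitochondrial sum, which gives the adult libraries their higher percentage.

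Other genes of mitochondrial translation did not all take the members' course. 7 further mitochondrial ribosomal proteins carry other names, and they summed to 990 ± 43.5 CPM in E12.5 brain (SD, n = 4), 521 ± 82.0 at E18.5 (n = 6) and 395 ± 26.4 in adult brain (n = 4). 3 of the 6 tested were lower at E18.5 by edgeR: Aurkaip1, Mrp63 and Ict1, a peptidyl-tRNA hydrolase built into the large subunit, at log2 fold changes of -1.12, -1.09 and -1.05. In adult against E12.5 brain 5 of the 6 were lower, the 3 of these with the smallest adjusted p being again Ict1, Aurkaip1 and Mrp63 at -1.70, -1.27 and -1.38. Translation factors summed to 354 ± 35.3, 338 ± 50.1 and 290 ± 53.2 CPM in the 3 brain groups. Of the 3 tested, 0 passed at E18.5 by edgeR or DESeq2 (1 at an unadjusted p under 0.05) and 1 was lower in adult than in E12.5 brain, the elongation factor Tufm (log2 fold change -1.64, SE 0.40; adjusted p = 0.00107 by edgeR). Its exchange factor Tsfm was lower in yolk sac than in E12.5 brain by edgeR (-1.28, SE 0.44, adjusted p = 0.0394), while DESeq2 called 0 translation factors lower there.

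Of 5 tested assembly factors 0 passed between E12.5 and E18.5 by edgeR, DESeq2 or an unadjusted p under 0.05, and their sums were 484 ± 26.8, 480 ± 61.2 and 543 ± 41.5 CPM in the 3 brain groups. Rbfa, which helps the small subunit mature, was higher in yolk sac than in E12.5 brain (262 ± 14.6 against 73.9 ± 25.9 CPM, n = 4 each, log2 fold change 1.91, edgeR adjusted p = 3.6e-07), and the RNA helicase Dhx30 was higher in adult than in E18.5 brain (log2 fold change 1.37, edgeR adjusted p = 0.00534). Of 7 tested genes that charge mitochondrial tRNAs, 1 was lower at E18.5, Kars, whose product also serves the cytosol (log2 fold change -0.94, edgeR adjusted p = 7.3e-04). In adult against E12.5 brain Kars was lower by edgeR (-0.66, adjusted p = 0.0359), while DESeq2 called 0 genes of this list lower there. Lars2 was higher (1.78, edgeR adjusted p = 0.0322), at 518 ± 194 against 144 ± 113 CPM. Of 4 tested genes of mitochondrial transcription and RNA handling, 0 passed at E18.5 by edgeR, DESeq2 or an unadjusted p under 0.05, and Tbrg4 was lower in adult than in E12.5 brain (-1.60, edgeR adjusted p = 0.00526). In adult against E12.5 brain DESeq2 called 1 gene of this list lower (Tbrg4) and 2 higher (Ptcd1 and Rg9mtd1), and 1 translation factor lower (Tufm) and 1 higher (Mtrf1l). The 3 higher genes are named here after their values were seen.

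**Figure D5:**
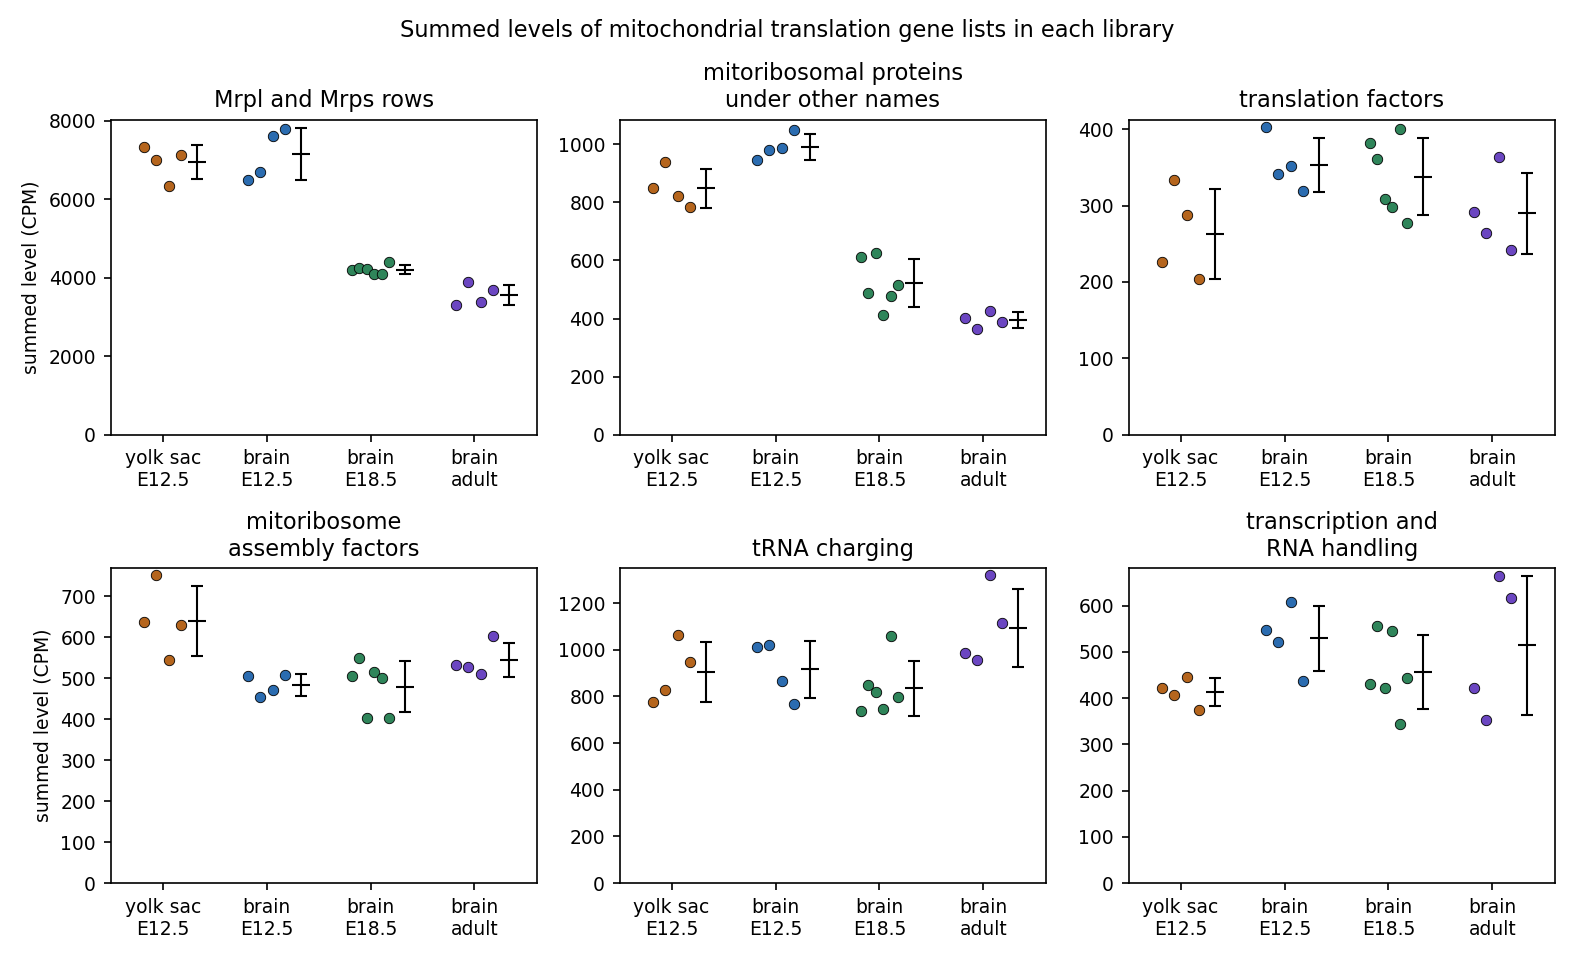
Summed level in CPM of the Mrpl and Mrps rows and of 5 other lists of mitochondrial translation genes in each library, with the mean and SD as a bar and a separate scale for each list. Mitochondrial ribosomal proteins under other names are lower at E18.5 and in adult brain, like the members. The sums of assembly factors and of tRNA charging genes are not lower in adult brain than in E12.5 brain. For tRNA charging (916 CPM in E12.5 and 1093 CPM in adult brain) this rests on the row with Lars2, at 144 and 518 CPM, which rose by more than the sum. Of the 7 tested genes of that list, 4 had fitted values below 0 and 3 above.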

How the data were processed

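MARS-seq UMI counts per gene and well of 18 libraries were analysed. The authors deposited whole-number counts that were not normalized. Per the submitters' processing notes bcl2fastq 2.15.0.4 and build mm9 were used; for aligner, UMI collapsing and annotation the entry is "not given in the sources used here". Counts per well reached 256, perhaps a ceiling, and 7 for a member. Members and lists were chosen with earlier results of these data known.

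Of 3420 single-cell wells, 3012 with at least 300 UMIs were kept and 408 left out; no doublet caller was run, since cells were sorted 1 to a well. Counts were summed per library (library totals 74562 to 534219) and given as CPM, scaled to the UMI total of the library. edgeR 4.0.16 (R 4.3.3, limma 3.58.1) fitted all libraries at once, with TMM factors, filterByExpr, the robust quasi-likelihood test and Benjamini-Hochberg adjustment over 4883 genes, called at adjusted p under 0.05. The fit was tested on simulated data with independent libraries. These held no plate or batch differences, so that test cannot show how the calls fare under them. Replicates differed beyond sampling noise (chi-square per degree of freedom 1.49 to 5.54), so none were merged. For each comparison and direction, up to 6 called members with the smallest adjusted p were named, with the member of most UMIs that did not pass. The 4 members with most UMIs in each subunit, the 2 untested members with most UMIs and up to 3 called genes of each other list were also named. Alternatives covered normalization, filter, DESeq2 1.42.0, groups fitted, UMI minimum, batch, plates, depth, dividing cells and each library left out. Leaving out either E12.5 brain plate, leaving out the 5 members with most UMIs, and placing members by position in the ribosome were added after the data were seen.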

Additional observations from a re-analysis of the deposited data

Results flagged for a closer look

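In 84 groups of 4 or 6 libraries examined, 3 libraries lay far from the rest of their group by Dixon's criterion, where chance flags about 1 in 20 groups. The summed small subunit level of adult replicate 4 was 1288 CPM, where the other adult libraries were at 1136 to 1153 CPM. The share of cells with a small subunit UMI in E18.5 replicate 6 was 26.1%, where the others were at 31.6 to 34.8%; its erythroid sum was 3070 CPM. Mrpl20 in adult replicate 1 was at 30.2 CPM, on 3 UMIs, where the others were at 143 to 161 CPM.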

How the results depend on the processing

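No paired analysis was possible because the replicate numbers follow accession order and the labels pair no libraries. For E18.5 against E12.5 brain, members lower (26) became 14 with plate sums, 9 with libraries thinned to 1 total, and 5 with batch as a covariate or without E12.5 brain replicates 3 and 4; with 1 library left out the count was 17 to 24. All genes called (1195) became 660, 627, 332 and 642. Genes called lower (652) became 308, 307, 184 and 282. For adult against E12.5 brain, members lower (27) became 14 thinned and 11 with the batch covariate, and all genes (1883) 1086 and 910. Genes called lower (1013) became 547 and 554. For adult against E18.5 brain, members lower (6) became 3 with plate sums, DESeq2 or thinning and 3 to 6 with 1 library left out. Members higher (0) became 1 with the batch covariate and 0 to 1 with 1 left out. All genes (1050) became 698 with plate sums and 690 thinned. Genes called lower (547) became 407 with plate sums, 513 with DESeq2 and 351 thinned. For yolk sac against E12.5 brain, members higher (2) became 0 with plate sums, thinning or without E12.5 brain replicates 1 and 2, 4 with no filter, 1 with the batch covariate and 1 to 3 with 1 left out. Members lower (1) became 0 with plate sums, thinning, DESeq2, RLE factors, no filter, 500 UMIs or no minimum per cell, only these groups, or without replicates 3 and 4, 3 within the shared batch, and 0 to 1 with 1 left out; all genes (774) became 493 with plate sums and 385 thinned. Thinning left 2335 genes to test; the cause of the other shifts was not tested.

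Of the 25 called values of named members, 0 changed sign over 542 refits, and 74 refits lost the call. Mrps18a at E18.5 against E12.5 turned to 0.012 with only those groups, 0.0869 without replicates 3 and 4, and -0.114 to 0.0945 with 1 left out. Mrps15 turned to 0.11 (batch) and 0.0793 (thinned) at E18.5 and to 0.32 (batch), 0.33 (thinned), 0.00883 (without the cells marked as dividing) and -0.388 to 0.00164 (1 left out) in adult against E12.5 brain. The small subunit ratio of yolk sac to E12.5 brain, 1.01, was 0.905 without the 5 members with most UMIs. Shares of cells with a large subunit UMI without thinning were 98.1, 98.4, 88.5 and 70.5%, and of the small subunit 91.8, 92.8, 69.0 and 43.6%. Depth limits single members most in adult brain, where Mrps21 and Mrpl30 rested on 19 UMIs each.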
